A study of Mus musculus with 12 samples.

Results

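The response of G1E-ER4 cells to β-estradiol (E2) alone was read from 6 of the 12 RNA sequencing libraries of the series, 3 of untreated cells (Ctrl) and 3 of cells given 1 µM E2 for 30 h. The libraries were taken by their titles. The other 6, from cells that also had Thiamet-G (TMG, a blocker of the enzyme OGA), enter only the last comparison and an alternative fit of all 12 libraries. G1E-ER4 is a mouse erythroid progenitor line derived from embryonic stem cells that lack GATA-1, and it holds GATA-1 joined to the ligand-binding part of the estrogen receptor (GATA-1ER). The cells of both groups carried the fusion and grew in erythropoietin, stem cell factor and puromycin, at passages given as 35 to 40. No cells without the fusion were given E2, and no vehicle is named for the Ctrl cells, so effects of E2 outside GATA-1ER cannot be told apart from those through it. It is 1 line, and no source says whether the replicates are separate cultures, so p-values cover the spread among these libraries alone, and that spread may be technical.

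GATA-1 is a zinc finger protein that binds GATA motifs in DNA and works with cofactors such as FOG-1 (Zfpm1), TAL1, LMO2 and KLF1. In red cell precursors it turns on globin, heme and membrane genes, and it displaces GATA-2 from sites that keep progenitor genes active. Maturing erythroblasts then make hemoglobin on a large scale, leave the cell cycle, condense the nucleus and clear their organelles.

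Of 32699 genes in the files, 8199 had a CPM (read counts scaled to a common library total) over 10 in at least 2 of the 6 libraries, and these were tested with edgeR. CPM are scaled by TMM, levels are given as mean ± SD (n = 3 in each group), and changes as the log2 fold change of E2 over Ctrl with its SE. A gene is said to be called, or to have risen or fallen, at an adjusted p under 0.05. The 6 libraries held 18364529 to 22198189 expected counts, so that 3 counts are worth 0.135 to 0.163 CPM. Principal component 1 held 98.0% of the variance and parted the groups. Pearson's r across the genes was 0.997 to 0.998 within a group and 0.843 to 0.852 between groups, and the median coefficient of variation of a gene was 3.15% in Ctrl and 3.43% in E2. In Ctrl replicate 2, Lars2 and AK155692 stood apart from the other Ctrl libraries, Lars2 at 359 CPM against 118 and 159 CPM, and AK155692 at 305 CPM against 89.5 and 127 CPM.

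Most of the transcriptome moved, by small steps. At this replicate spread 6967 genes (85.0%) were called, 3531 higher (43.1%) and 3436 lower (41.9%), and the 3 values of a group lay wholly to one side of the other group's for 7047 genes (85.9%). The calls were small in the main: 4009 of them (57.5%) were under 1.5-fold, and the median change was 1.40-fold among higher and 1.42-fold among lower genes. A change of 2-fold or more was called for 715 higher genes (8.72%) and 707 lower genes (8.62%), of 4-fold or more for 192 and 163, and of 16-fold or more for 45 and 31. The median log2 fold change over all genes tested was 0.0041, which the TMM scaling sets near 0: with library size alone it fell by 0.10. Counts for gene groups are therefore to be read against shares of 43.1% higher and 41.9% lower. The filter itself bears on them, since 277 genes passed it in E2 libraries only and 502 in Ctrl libraries only, of which 274 were called higher and 470 lower, and none the other way. In a bulk library, more RNA per cell and more cells that hold an RNA cannot be told apart.

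**Figure D1:**
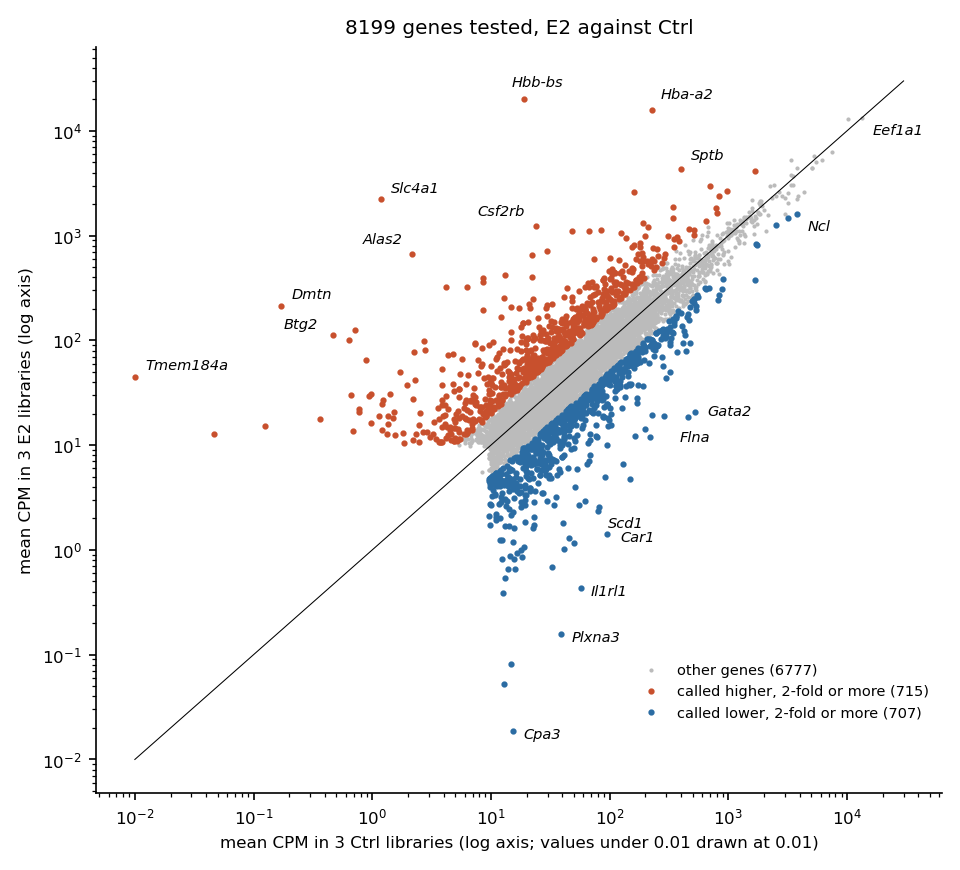
Mean CPM of 8199 genes in the 3 Ctrl libraries (horizontal, log axis) against the 3 E2 libraries (vertical, log axis), with genes called 2-fold or more higher in orange (715) and lower in blue (707). The line marks equal levels. Tmem184a, Slc4a1, Dmtn, Hbb-bs and Alas2 are among the genes farthest above it, and Cpa3, Plxna3 and Il1rl1 are among those farthest below.

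Reads of Gata1 rose and those of Gata2 fell. Gata1 (chrX:7959260-7976663) stood at 131, 125 and 127 CPM in the Ctrl libraries and 453, 459 and 474 CPM in the E2 libraries, and the groups did not overlap (log2 fold change 1.85 ± 0.03, edgeR adjusted p = 1.55e-16). Reads of the GATA-1ER transcript may be among them, which the files do not separate. The line derives from cells that lack GATA-1, so the rise is not to be read as induction of an intact native gene. Gata2 (chr6:88193891-88207032), the GATA factor of progenitors, gave the opposite picture, with 558, 493 and 529.5 CPM in the Ctrl libraries and 20.003, 19.7 and 22.98 CPM in the E2 libraries (log2 fold change -4.66 ± 0.06, edgeR adjusted p = 8.78e-18). Per length, in mean TPM, Gata1 went from 116 to 364 TPM and Gata2 from 269 to 9.32 TPM, with GATA-1ER reads possibly among the former. Of the GATA-1 partners, Klf1, the activator of adult β-globin, held 96.4, 92.0 and 92.8 CPM in the Ctrl libraries and 261, 279 and 287 CPM in the E2 libraries (log2 fold change 1.56 ± 0.04, edgeR adjusted p = 1.27e-14). Zfpm1, which encodes FOG-1, rose from 229 ± 26.5 to 602 ± 32.3 CPM (1.39 ± 0.06). Tal1, a basic helix-loop-helix factor of the same complexes, moved little, from 260.1 ± 10.0 to 314 ± 10.4 CPM (0.27 ± 0.03). Spi1, which encodes PU.1, the myeloid factor that GATA-1 opposes, was not called, at 25.9 ± 1.53 and 28.0 ± 2.56 CPM (log2 fold change 0.11 ± 0.07, edgeR adjusted p = 0.138).

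Among 39 erythroid transcription factors and partners tested, 21 rose (53.8%) and 14 fell (35.9%). Of the 39, 2 passed the filter in Ctrl libraries only. Bach1, the heme-sensing repressor, rose from 18.5 ± 0.506 to 148 ± 1.32 CPM (2.998 ± 0.04). Its partner Mafk, a small Maf protein, rose from 34.2 ± 0.979 to 149.5 ± 1.33 CPM (2.13 ± 0.04), and Klf13 rose from 67.1 ± 2.84 to 222 ± 4.45 CPM (1.73 ± 0.04). Hhex and Lyl1, factors of early blood progenitors, fell from 53.3 ± 4.07 to 5.88 ± 0.392 CPM (-3.18 ± 0.08) and from 171 ± 6.84 to 25.5 ± 2.65 CPM (-2.75 ± 0.06). Stat5a, which carries the erythropoietin signal to the nucleus, fell from 214 ± 5.51 to 60.3 ± 0.763 CPM (-1.83 ± 0.03).

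Most of the progenitor genes known to be lowered by GATA-1 fell, a list chosen for that direction, so its count is no independent evidence of it. Of 14 tested, 12 fell, 9 of them 2-fold or more, 1 rose and 1 was not called, with a median log2 fold change of -1.46. Of these 14, 2 passed the filter in Ctrl libraries only. Kit, the stem cell factor receptor (chr5:75574987-75656722), held 471, 471 and 487 CPM in the Ctrl libraries and 98.5, 92.2 and 92.9 CPM in the E2 libraries (log2 fold change -2.33 ± 0.03, edgeR adjusted p = 3.07e-17). Myb, which keeps progenitors dividing, held 429, 437 and 462 CPM in the Ctrl libraries and 83.5, 76.3 and 79.8 CPM in the E2 libraries (log2 fold change -2.47 ± 0.04, edgeR adjusted p = 1.04e-16), and Myc held 369, 293 and 300.1 CPM in the Ctrl libraries and 98.3, 85.6 and 84.7 CPM in the E2 libraries (log2 fold change -1.84 ± 0.08, edgeR adjusted p = 5.99e-12). No Ctrl library overlapped an E2 library for these 3 genes. Vim, the intermediate filament of immature and mesenchymal cells, fell from 49.8 ± 6.72 to 1.15 ± 0.520 CPM (-5.41 ± 0.17). Cdk6 fell less, from 259 ± 5.24 to 122.6 ± 7.54 CPM (-1.08 ± 0.04). The riser was Runx1, a regulator of blood stem cells and megakaryocytes, from 66.1 ± 1.70 to 124 ± 1.16 CPM (0.91 ± 0.03).

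Hemoglobin genes reached the top of the library. Hbb-bs, an adult β-globin (chr7:103826523-103827928), held 21.4, 18.0 and 18.0 CPM in the Ctrl libraries and 20887, 20657 and 18716 CPM in the E2 libraries (log2 fold change 10.04 ± 0.07, edgeR adjusted p = 4.19e-20). Hba-a2, an adult α-globin (chr11:32296492-32297310), held 237, 215 and 233 CPM in the Ctrl libraries and 15827, 16494 and 15602 CPM in the E2 libraries (log2 fold change 6.13 ± 0.05, edgeR adjusted p = 4.43e-20). Both rose without overlap, the β gene from the lower level. Per length, in the deposited TPM values, Hbb-bs went from 64.8 to 59068 TPM and Hba-a2 from 922 to 55927 TPM, ranks 1 and 2 of all genes in E2. Embryonic globins followed at far lower levels: Hbb-bh1 went from 0.124 ± 0.0718 to 15.2 ± 2.003 CPM and the ζ-globin gene Hba-x, which stayed under the filter, from 0.0149 ± 0.0258 to 8.66 ± 0.702 CPM. Hbb-y, the εy-globin gene, also under the filter, went from 1 count over the 3 Ctrl libraries to 52 over the 3 E2 libraries, without overlap, and held 0.623, 1.08 and 0.919 CPM in E2. The globins in the files together held 0.0258% ± 0.0015 of the counts of a Ctrl library and 3.47% ± 0.15 of an E2 library, with no overlap (exact permutation p = 0.10, two-sided, the smallest that 3 against 3 can give). Globin genes are near copies of each other, so how their shared reads were divided is uncertain, and Hba-a1 and Hbb-bt were not analysed here.

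In the list of hemoglobin chaperone and oxygen handling genes, those tested rose apart from Car1. The gene of hemoglobin's chaperone, Ahsp, was not found by that symbol or as Eraf, so its level was not read. Of 6 tested, 5 rose, 4 of them 2-fold or more. The filter was passed by 2 of the 6 in E2 libraries only and by 1, Car1, in Ctrl libraries only. The strongest risers, Mgst3 and Rhd, are also in the glutathione and blood group lists, so the count is not one of oxygen handling alone. The carbonic anhydrases, which set the pH and CO2 balance of the red cell, went in opposite directions. Car2 rose, with 759, 765 and 823 CPM in the Ctrl libraries and 1825, 1868 and 1855 CPM in the E2 libraries (log2 fold change 1.24 ± 0.03, edgeR adjusted p = 1.93e-14). Car1 fell, with 99.02, 92.2 and 96.9 CPM in the Ctrl libraries and 1.59, 1.22 and 1.48 CPM in the E2 libraries (log2 fold change -6.07 ± 0.08, edgeR adjusted p = 1.35e-17), among the 10 strongest falls of the data. Bpgm, which makes the oxygen-affinity regulator 2,3-bisphosphoglycerate, rose from 22.9 ± 0.810 to 47.2 ± 0.846 CPM (1.05 ± 0.05), and was picked with its values known.

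Genes of heme synthesis rose along most of the path. Of 22 genes of heme synthesis and export tested, 17 rose, 13 of them 2-fold or more, 3 fell and 2 were not called, with a median log2 fold change of 1.56. Among them, 1 riser, Alas2, passed the filter in E2 libraries only. Alas2 (chrX:150547417-150570622), the erythroid form of the first enzyme, held 1.71, 2.28 and 2.54 CPM in the Ctrl libraries and 642, 676 and 667 CPM in the E2 libraries (log2 fold change 8.24 ± 0.06, edgeR adjusted p = 4.43e-20). Alas1, the form used in other tissues, fell from 19.0 ± 1.11 to 13.8 ± 0.921 CPM (-0.46 ± 0.08), so the 2 forms of 1 enzyme went opposite ways. Alad, the second enzyme, held 84.4, 86.9 and 81.5 CPM in the Ctrl libraries and 1112, 1160.4 and 1134 CPM in the E2 libraries (log2 fold change 3.75 ± 0.03, edgeR adjusted p = 2.02e-19). Abcb10, a mitochondrial transporter that stabilises the iron importer, rose from 67.3 ± 2.86 to 1107 ± 24.4 CPM (4.04 ± 0.03), and Tmem14c, which moves protoporphyrinogen into the mitochondrial matrix, from 125 ± 2.50 to 1065 ± 27.5 CPM (3.09 ± 0.03). Hmox2 and Pgrmc1, which break down and bind heme, fell by under 1.5-fold, from 30.6 ± 1.30 to 24.7 ± 0.193 CPM and from 75.001 ± 1.11 to 54.1 ± 1.86 CPM. Hmox1, the inducible heme oxygenase, was not called (37.7 ± 5.64 and 42.6 ± 5.25 CPM, edgeR adjusted p = 0.0830), and was picked with its values known.

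Iron handling went both ways, with 12 of 21 genes higher and 8 lower. Uptake for heme rose: Tfrc, the transferrin receptor, held 969, 978 and 989 CPM in the Ctrl libraries and 2673, 2709 and 2674 CPM in the E2 libraries (log2 fold change 1.46 ± 0.02, edgeR adjusted p = 2.35e-16), and Slc25a37, the mitochondrial iron importer mitoferrin-1, 47.4, 49.1 and 47.4 CPM in the Ctrl libraries and 1116, 1138 and 1080.4 CPM in the E2 libraries (log2 fold change 4.53 ± 0.03, edgeR adjusted p = 4.43e-20). Its relative of other tissues, Slc25a28 (mitoferrin-2), fell from 49.6 ± 0.665 to 30.5 ± 1.87 CPM (-0.70 ± 0.05). Ncoa4, which hands ferritin to the lysosome, rose from 187 ± 3.89 to 685 ± 10.98 CPM (1.87 ± 0.03). The ferritin chains parted: the light chain Ftl1 rose from 1693 ± 51.5 to 4173 ± 483 CPM (1.30 ± 0.06) while the heavy chain Fth1 fell from 2069 ± 45.9 to 1108 ± 34.8 CPM (-0.90 ± 0.03). Tfr2, the second transferrin receptor, which pairs with the erythropoietin receptor, held 201, 196 and 198 CPM in the Ctrl libraries and 14.9, 11.8 and 15.7 CPM in the E2 libraries (log2 fold change -3.82 ± 0.06, edgeR adjusted p = 1.55e-16), the strongest fall of the list.

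GATA motifs were looked for in promoters of RefSeq (GRCm38.p6), 250 bases before to 50 after each annotated start, for the 6337 tested genes whose symbols matched. The sequences of 5 such promoters are shown because their genes are among those that rose (Alas2, Klf1, Uros) or fell (Il1rl1, Cpa3) and hold a GATA motif within the window. They were picked with the values known. Each is the 250 bases before the start, 5′ to 3′ on the gene's strand, with AGATAA or TGATAA in capitals (TTATCT or TTATCA where the motif is on the opposite strand). Alas2 spans chrX:150547167-150547416 on the plus strand, Klf1 chr8:84901732-84901981 on the plus strand, Uros, at its downstream start, chr7:133702501-133702750 on the minus strand, Il1rl1 chr1:40429320-40429569 on the plus strand and Cpa3 chr3:20242182-20242431 on the minus strand. RefSeq places Il1rl1 at chr1:40404864-40465418 and Cpa3 at chr3:20215616-20242209, so the starts used for these genes lie inside the gene and not at its outer end.
Alas2: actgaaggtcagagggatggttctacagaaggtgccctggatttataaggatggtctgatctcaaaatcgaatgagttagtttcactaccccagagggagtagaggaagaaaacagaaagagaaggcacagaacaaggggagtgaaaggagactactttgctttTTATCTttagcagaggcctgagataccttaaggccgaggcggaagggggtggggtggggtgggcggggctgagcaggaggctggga
Klf1: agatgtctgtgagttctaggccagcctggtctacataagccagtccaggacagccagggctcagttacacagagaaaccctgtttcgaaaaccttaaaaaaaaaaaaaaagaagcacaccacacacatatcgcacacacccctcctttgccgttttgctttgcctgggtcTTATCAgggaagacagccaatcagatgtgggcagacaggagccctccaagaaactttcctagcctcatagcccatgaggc
Uros: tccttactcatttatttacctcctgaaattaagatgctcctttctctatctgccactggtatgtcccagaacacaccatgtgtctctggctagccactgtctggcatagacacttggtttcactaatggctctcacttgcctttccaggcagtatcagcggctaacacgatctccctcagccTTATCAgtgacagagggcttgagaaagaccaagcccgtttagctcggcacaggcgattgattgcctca
Il1rl1: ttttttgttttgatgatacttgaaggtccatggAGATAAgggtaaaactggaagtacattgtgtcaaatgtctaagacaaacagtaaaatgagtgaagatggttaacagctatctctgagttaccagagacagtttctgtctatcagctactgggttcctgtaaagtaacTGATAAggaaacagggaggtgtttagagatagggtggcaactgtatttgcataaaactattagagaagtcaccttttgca
Cpa3: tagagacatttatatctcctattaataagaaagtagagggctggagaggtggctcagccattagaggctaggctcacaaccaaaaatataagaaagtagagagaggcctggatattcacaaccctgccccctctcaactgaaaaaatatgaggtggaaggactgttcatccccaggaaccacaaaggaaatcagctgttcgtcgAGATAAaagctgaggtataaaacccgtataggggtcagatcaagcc

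The motif began 86 bases before the start of Alas2, 80 before that of Klf1, 68 before that of Uros and 46 before that of Cpa3, and Il1rl1 held AGATAA at 217 and TGATAA at 80 bases. Uros, the fourth enzyme of heme synthesis, rose from 20.1 ± 0.830 to 104 ± 2.90 CPM (2.36 ± 0.04). AGATAA, on either strand, was in 9.43% of the promoters of genes called 2-fold or more higher and in 14.7% of those called 4-fold or more higher. It was in 6.59% and 9.79% of those called lower by the same folds, in 4.32% of those of genes not called, in 6.06% of all tested genes and in 11.2% of all promoters in the table. TGATAA was in 5.69% and 8.95% of the promoters of genes higher by those folds and in 3.57% and 5.15% of those lower. Its share was 3.80% of those not called, 4.096% of all tested and 9.05% of all promoters in the table. CACACCC, letters of the kind KLF1 binds, was in 9.02% and 13.7% of the promoters of genes higher by those folds and in 8.38% and 9.28% of those lower. Its share was 7.43% of those not called, 7.77% of all tested and 7.95% of all promoters in the table. AGATAA and TGATAA differ in the first letter, so a site counts as 1 of them, and shares are given with no test. A match in a window is a description and no evidence of binding.

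Genes of the red cell membrane skeleton rose together. Of 18 tested, 15 rose, 14 of them 2-fold or more, and 3 fell, with a median log2 fold change of 1.76; 3 risers had passed the filter in E2 libraries only. Slc4a1, the anion exchanger band 3 (chr11:102348820-102365281), held 1.14, 1.33 and 1.07 CPM in the Ctrl libraries and 2139, 2354 and 2238 CPM in the E2 libraries (log2 fold change 10.89 ± 0.07, edgeR adjusted p = 1.46e-20). Dmtn, the actin-bundling protein dematin, held 0.238, 0.0951 and 0.178 CPM in the Ctrl libraries and 202, 223 and 222 CPM in the E2 libraries (log2 fold change 10.25 ± 0.11, edgeR adjusted p = 1.39e-18). Both were under 2 CPM in each Ctrl library. Sptb, the erythroid β-spectrin, was already present and held 398, 395 and 396 CPM in the Ctrl libraries and 4357, 4360.1 and 4329 CPM in the E2 libraries (log2 fold change 3.46 ± 0.03, edgeR adjusted p = 5.88e-20). The spectrins of other cells went the opposite way: Sptan1 fell from 12.6 ± 1.49 to 0.384 ± 0.147 CPM (-4.98 ± 0.19) and Sptbn1 from 44.5 ± 2.11 to 18.9 ± 1.39 CPM (-1.24 ± 0.06), both picked after their values were seen. Epb42, the protein 4.2 that binds band 3, stayed at 1.24, 1.24 and 1.52 CPM in Ctrl and 1.42, 1.93 and 1.17 CPM in E2, under the filter and with overlapping groups. The fallers were Tpm3 and Piezo1, at log2 fold changes of -0.72 and -0.51, and Actb, at -0.08. Actb was picked with its values known and its groups overlapped. In a fit of all 12 libraries 2 genes of the list fell, not 3. The same held with Ctrl replicate 1, Ctrl replicate 3, E2 replicate 2 or E2 replicate 3 left out.

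On the cell surface, 11 of 15 blood group and surface genes rose and 3 fell, and 2 of the 15 passed the filter in E2 libraries only. Kel, a membrane endopeptidase of the blood group of that name, rose from 22.5 ± 0.481 to 248.6 ± 14.1 CPM (3.47 ± 0.05). Cd44, an adhesion receptor that erythroblasts lose as they mature, fell from 90.5 ± 2.11 to 23.3 ± 1.35 CPM (-1.96 ± 0.05), and Slc29a1, the nucleoside transporter ENT1, from 170.0 ± 1.69 to 60.6 ± 3.82 CPM (-1.49 ± 0.04). Atp2b4, a calcium pump of the red cell membrane, was among the 10 genes that gained most mean CPM and held 174, 157 and 155 CPM in the Ctrl libraries and 2638, 2666 and 2523 CPM in the E2 libraries (log2 fold change 4.01 ± 0.04, edgeR adjusted p = 1.44e-18).

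**Figure D2:**
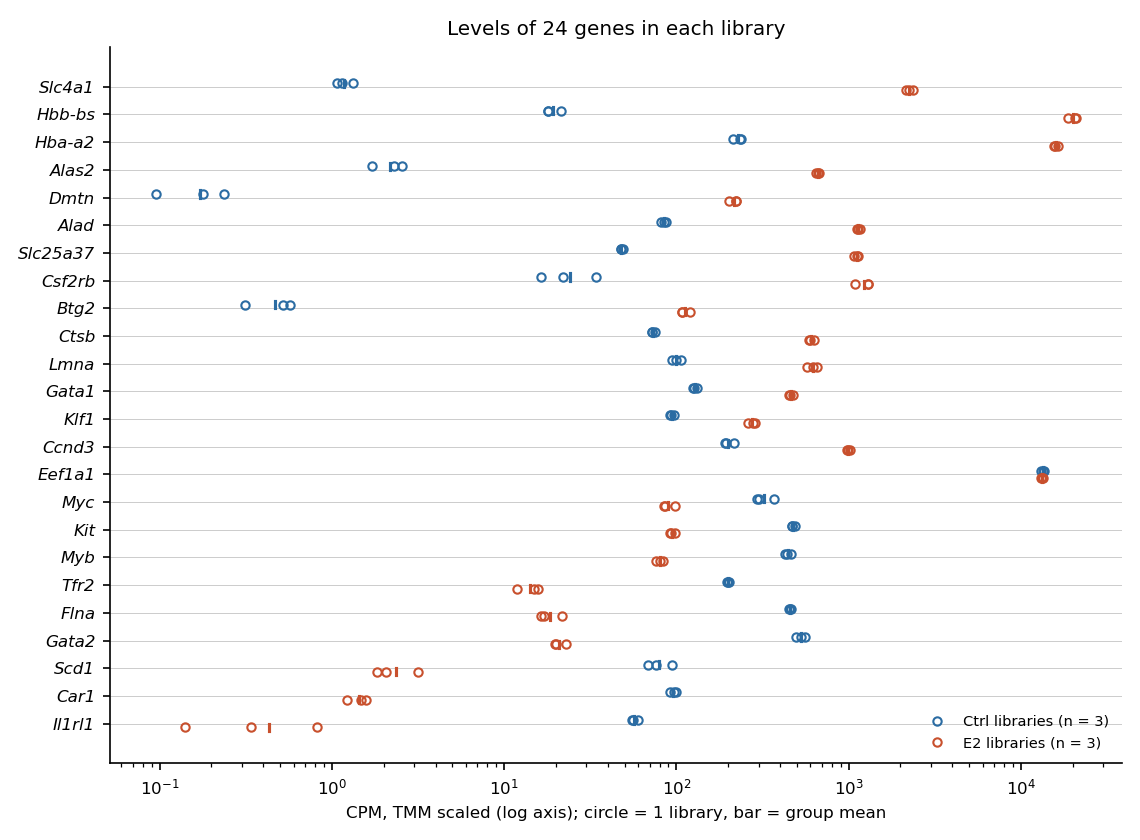
CPM of named genes in each of the 3 Ctrl (blue) and 3 E2 (orange) libraries on a log axis, with a bar at the group mean. The groups do not overlap for any gene but Eef1a1, which lies at like levels in all 6 libraries, and the widest gaps are those of Slc4a1, Hbb-bs and Dmtn.

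Some genes went from at or near 0 counts to clearly detected levels or the reverse. Tmem184a, a transmembrane protein, had no count in the 3 Ctrl libraries and 2648 in the 3 E2 libraries, at least 973-fold higher by the limit of 3 counts over the group. Slc38a5, a glutamine transporter, went from 3 to 753 counts, a ratio of 277 (95% exact interval 94.3 to 1344, counting error only). Btg2, an antiproliferative protein, held 0.523, 0.571 and 0.312 CPM in the Ctrl libraries and 108, 121 and 108 CPM in the E2 libraries (log2 fold change 7.89 ± 0.11, edgeR adjusted p = 3.21e-17). Btn1a1, a butyrophilin, and Rragd, a GTPase that helps amino acids reach the kinase mTORC1, rose from 0.713 ± 0.0819 to 125 ± 0.750 CPM and from 0.639 ± 0.129 to 101 ± 9.02 CPM. In the other direction, Cpa3, the mast cell carboxypeptidase, went from 991 counts to 1, a ratio of 899 (interval 161 to 35550). Tespa1, a signalling adaptor of lymphocytes and mast cells, went from 836 counts to 3, a ratio of 253 (interval 86.2 to 1229). Plxna3, a semaphorin receptor, held 38.3, 39.0 and 40.4 CPM in the Ctrl libraries and 0.227, 0.0941 and 0.153 CPM in the E2 libraries, and Il1rl1, the interleukin-33 receptor, 55.8, 55.4 and 59.5 CPM in the Ctrl libraries and 0.340, 0.141 and 0.817 CPM in the E2 libraries. The remaining genes among the 10 strongest falls outside the lists were Sall2, Fam198b and Plp2, which went from 32.6 ± 2.35, 41.0 ± 0.505 and 45.8 ± 1.68 CPM to 0.681 ± 0.1996, 1.01 ± 0.399 and 1.29 ± 0.229 CPM.

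Cytokine receptors and their signalling genes showed no common direction, with 21 of 48 higher and 23 lower, and a median that changed sign with the scaling. Of the 48, 4 passed the filter in E2 libraries only and 4 in Ctrl libraries only. The strongest risers were the β chains of the interleukin-3 receptor family. Csf2rb held 16.3, 21.9 and 34.0 CPM in the Ctrl libraries and 1291, 1084 and 1303 CPM in the E2 libraries (log2 fold change 5.66 ± 0.14, edgeR adjusted p = 2.16e-14), and its neighbour and near copy Csf2rb2 rose from 4.195 ± 1.66 to 325 ± 42.2 CPM (6.26 ± 0.14). Reads that both genes share were divided by the authors' software, so the split is uncertain, though neither was high in Ctrl. Fam132b, the hormone erythroferrone that erythroblasts send to the liver, rose from 1.73 ± 0.434 to 50.0 ± 3.85 CPM (4.84 ± 0.11). Pik3cg, a PI3-kinase subunit of blood cells, fell from 17.5 ± 1.34 to 4.05 ± 0.622 CPM (-2.10 ± 0.11). Of 10 immediate early and AP-1 genes 5 rose and 5 fell, and 2 of the 10 passed the filter in E2 libraries only and 2 in Ctrl libraries only. Jun rose from 0.939 ± 0.322 to 29.3 ± 1.57 CPM (4.95 ± 0.13), while Ier2 and Klf10 fell from 31.1 ± 4.23 to 6.16 ± 1.33 CPM and from 29.2 ± 2.53 to 5.21 ± 0.691 CPM.

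Cell cycle genes went both ways. Inhibitors and antiproliferative genes rose, 18 of 22 with 3 lower and a median of 0.81; 4 of them passed the filter in E2 only. Trp53inp1, a p53-induced stress gene, rose from 3.85 ± 0.707 to 53.3 ± 1.58 CPM (3.79 ± 0.08), and Gadd45g from 4.75 ± 0.524 to 38.3 ± 5.43 CPM (3.01 ± 0.12). G1 cyclins, kinases and E2F factors leaned the other way, with 13 of 20 lower and 5 higher (median -0.57). Skp2, which marks the inhibitor p27 for destruction, fell from 59.5 ± 0.995 to 15.4 ± 1.42 CPM (-1.95 ± 0.06). Ccnd3, the D-type cyclin that sets the number of erythroid divisions, rose, with 215, 193 and 193 CPM in the Ctrl libraries and 1020.3, 974 and 987 CPM in the E2 libraries (log2 fold change 2.31 ± 0.04, edgeR adjusted p = 2.18e-16). Of 52 replication genes 19 rose (36.5%), 22 fell (42.3%) and 11 were not called, with a median of -0.05. Within them Cdc6, the loader of the replicative helicase, rose from 130.4 ± 0.977 to 403 ± 7.08 CPM (1.63 ± 0.03), and Pold2, a subunit of DNA polymerase δ, fell from 112 ± 3.60 to 40.8 ± 4.13 CPM (-1.45 ± 0.05). Genes of mitosis rose in most cases, 42 of 55 with 5 lower (10 lower with library size alone) and a median of 0.37. Cdc25b, the phosphatase that starts mitosis, rose, with 6.71, 7.51 and 7.63 CPM in the Ctrl libraries and 98.4, 88.7 and 89.6 CPM in the E2 libraries (log2 fold change 3.66 ± 0.06, edgeR adjusted p = 3.45e-16). Cit, a kinase of cytokinesis, rose from 90.6 ± 2.25 to 393 ± 13.6 CPM (2.12 ± 0.03), and Bub1b, of the spindle checkpoint, fell from 292 ± 3.24 to 177 ± 7.73 CPM (-0.72 ± 0.03).

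Lysosome and clearance genes rose. Of 47 lysosomal genes 38 rose and 7 fell (median 0.78), and of 45 genes of terminal maturation and organelle clearance 33 rose and 8 fell (median 0.73). The filter was passed in E2 libraries only by 2 lysosomal and 3 maturation genes, and in Ctrl libraries only by 1 lysosomal gene. Ctsb, the protease cathepsin B, held 75.1, 72.4 and 72.4 CPM in the Ctrl libraries and 592, 627 and 595 CPM in the E2 libraries (log2 fold change 3.04 ± 0.03, edgeR adjusted p = 1.96e-18). Ctse, cathepsin E, fell from 367 ± 4.87 to 78.3 ± 3.03 CPM (-2.23 ± 0.03), and Tfeb, a factor that activates lysosomal genes, from 19.95 ± 2.10 to 6.28 ± 0.637 CPM (-1.66 ± 0.10). Ube2l6, a conjugating enzyme of ubiquitin and ISG15, rose from 12.1 ± 0.678 to 169 ± 3.88 CPM (3.80 ± 0.05), Trim10, a factor of terminal erythroid maturation, from 9.61 ± 0.534 to 91.3 ± 2.16 CPM (3.25 ± 0.05), and Ranbp10, a tubulin-binding protein, from 66.2 ± 0.851 to 357 ± 5.88 CPM (2.43 ± 0.03). Cell death genes had no common direction (9 of 28 higher, 13 lower). Bcl2l1, which encodes the survival protein BCL-XL, rose from 25.1 ± 1.22 to 68.1 ± 1.97 CPM (1.44 ± 0.05).

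**Figure D3:**
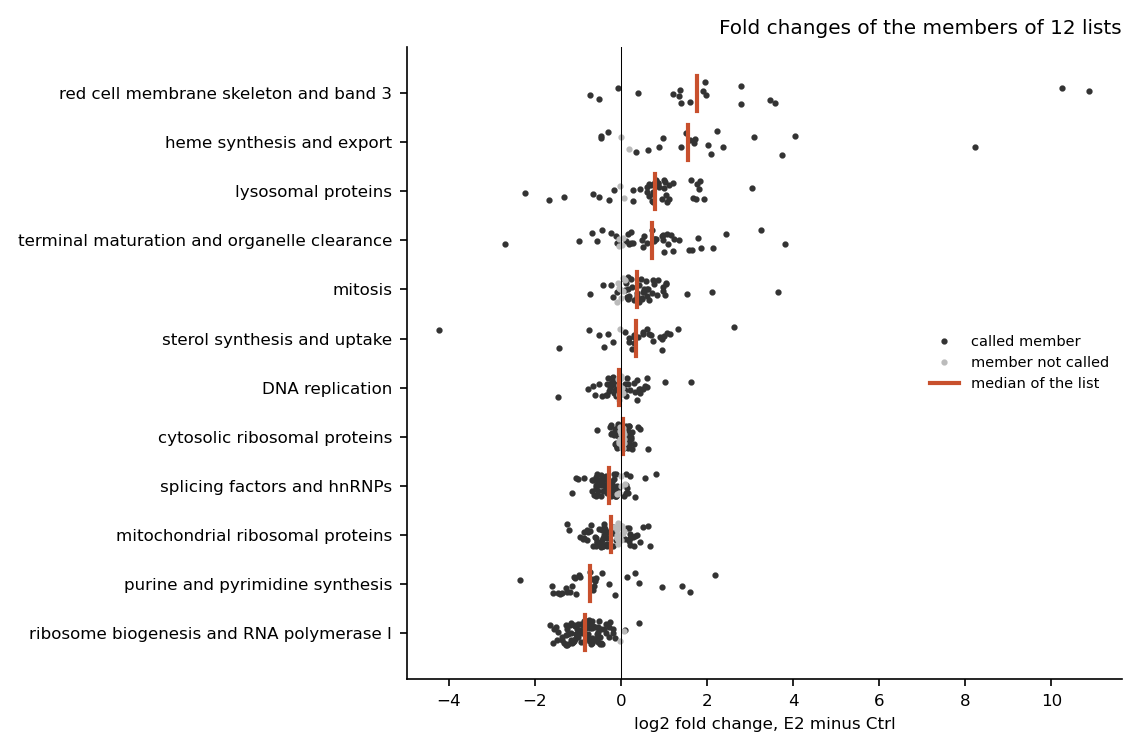
Log2 fold changes (horizontal) of the tested members of 12 gene lists, called members in black, members not called in grey and the median of each list in orange. Membrane skeleton and heme genes reach above 8, the lysosome and mitosis lists lie mostly above 0, and those of nucleotide synthesis and ribosome biogenesis mostly below it.

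Genes of ribosome biogenesis fell almost throughout, and those of ribosomal proteins changed by less than 2-fold. Of 88 genes of ribosome biogenesis and RNA polymerase I, 84 fell, 30 of them 2-fold or more, 2 rose and 2 were not called (median -0.82). Rrp1b, Polr1b and Ddx21, a nucleolar protein, a polymerase I subunit and an RNA helicase, fell from 143 ± 1.87 to 45.5 ± 2.87 CPM, from 162 ± 4.27 to 54.0 ± 3.96 CPM and from 405 ± 5.09 to 137 ± 6.44 CPM. The nucleolar proteins nucleolin (Ncl) and nucleophosmin (Npm1) were among the 10 genes that lost most mean CPM. Ncl held 3679.9, 3847 and 3843 CPM in the Ctrl libraries and 1590.1, 1578 and 1624 CPM in the E2 libraries (-1.25 ± 0.03), and Npm1 fell from 3176 ± 139 to 1474 ± 35.5 CPM (-1.11 ± 0.03). The risers were Rrn3, the polymerase I initiation factor, at log2 fold change 0.42 ± 0.04, and Bysl at 0.10 ± 0.04, whose call was lost under 6 alternatives, such as DESeq2. Of 81 cytosolic ribosomal protein genes, 35 rose, 18 fell and 28 were not called, none by 2-fold, with a median of 0.05 that turned to -0.05 with library size alone (20 higher and 37 lower). Rpsa, the ribosomal protein that is also a laminin receptor, moved most, from 3362 ± 21.0 to 5222 ± 114 CPM (0.64 ± 0.03). These genes held 9.84% ± 0.03 of Ctrl counts and 9.57% ± 0.14 of E2 counts, with no overlap (exact permutation p = 0.10, two-sided, the smallest possible). Of 76 mitochondrial ribosomal proteins 45 fell and 15 rose (median -0.24), Mrpl50 and Mrpl12 most, from 64.4 ± 1.55 to 27.2 ± 0.123 CPM and from 200.2 ± 5.24 to 86.8 ± 4.63 CPM. Of 17 mitochondrial tRNA synthetases 14 fell and none rose (median -0.47, and -0.42 without Ctrl replicate 2, where Lars2 stood apart), with Yars2 from 39.9 ± 1.11 to 18.5 ± 1.28 CPM.

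Translation and folding factors leaned lower. Of 53 initiation and elongation factors 32 fell and 12 rose (5 rose with library size alone), with Eif1a from 169 ± 2.55 to 68.7 ± 2.47 CPM (-1.30 ± 0.04) and Eif5b, which joins the ribosomal subunits, higher, from 431 ± 8.55 to 812 ± 5.32 CPM (0.91 ± 0.03). Of 33 chaperones 24 fell and 6 rose (median -0.33). Hspd1, the mitochondrial chaperonin, fell from 1729 ± 38.6 to 827 ± 13.1 CPM (-1.06 ± 0.03), and Hsp90aa1 and Hsp90ab1, the cytosolic HSP90 pair, were among the largest losers of mean CPM, from 3789 ± 53.1 to 2227 ± 23.4 CPM and from 4383 ± 77.3 to 2632 ± 19.0 CPM. Dnajb2, a cochaperone, rose from 17.9 ± 0.744 to 96.9 ± 4.098 CPM (2.44 ± 0.05). Genes of the unfolded protein and integrated stress responses split, 14 higher and 14 lower of 32. The kinase Eif2ak1, which senses heme, rose from 101.98 ± 1.87 to 394 ± 5.65 CPM (1.95 ± 0.03). Ppp1r15a, which reverses its mark on eIF2α, rose from 28.9 ± 1.23 to 206 ± 12.3 CPM (2.83 ± 0.05), and the stress factor Ddit3 from 31.1 ± 5.11 to 139 ± 16.1 CPM (2.16 ± 0.09). The chaperones of the endoplasmic reticulum Calr and Pdia4 fell from 534 ± 28.3 to 214 ± 6.72 CPM (-1.32 ± 0.04) and from 59.2 ± 0.540 to 24.5 ± 0.735 CPM (-1.27 ± 0.04).

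Genes of nucleotide synthesis fell as a group. Of 31 genes, 24 fell, 13 of them 2-fold or more, and 7 rose (median -0.72), and 2 of the 31 passed the filter in Ctrl libraries only. Gart, a purine synthesis enzyme with 3 activities, held 463, 459 and 477 CPM in Ctrl and 155, 151 and 159.7 CPM in E2 (log2 fold change -1.58 ± 0.03, edgeR adjusted p = 7.86e-16), and Impdh1, of guanine nucleotide synthesis, fell from 15.7 ± 0.220 to 3.12 ± 0.735 CPM (-2.35 ± 0.12). The salvage enzyme Aprt fell too, from 113 ± 2.86 to 37.0 ± 4.34 CPM (-1.60 ± 0.06). The risers included Ampd3, an AMP deaminase of red cells, from 13.1 ± 0.618 to 59.3 ± 1.84 CPM (2.18 ± 0.05), Nt5c3, the nucleotidase that clears pyrimidines from reticulocytes, from 92.0 ± 2.41 to 282 ± 4.203 CPM (1.62 ± 0.03), and Dck, a salvage kinase, from 49.6 ± 1.99 to 133 ± 1.69 CPM (1.42 ± 0.04). Serine, one-carbon and amino acid enzymes leaned lower, 16 of 26 with 7 higher (median -0.35). Mthfd1, which supplies one-carbon units to purines, fell from 843 ± 18.3 to 272 ± 9.399 CPM (-1.63 ± 0.03), and Sms, spermine synthase, from 114 ± 1.19 to 36.6 ± 1.29 CPM (-1.64 ± 0.04).

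In glycolysis, 13 of 30 genes rose and 15 fell, and the forms of 1 enzyme went opposite ways. Pklr, the pyruvate kinase of liver and red cells, rose, with 130.2, 121 and 117 CPM in the Ctrl libraries and 421, 445 and 454 CPM in the E2 libraries (log2 fold change 1.84 ± 0.04, edgeR adjusted p = 3.64e-15). Pkm, the form of most other tissues, fell, with 3015, 2967 and 2995 CPM in the Ctrl libraries and 1625, 1505 and 1728 CPM in the E2 libraries (log2 fold change -0.89 ± 0.04, edgeR adjusted p = 1.24e-11) but stayed the more abundant per length, at 1023 against 231 TPM in E2. Pfkfb4 and Pfkfb1, which set the level of the glycolytic activator fructose 2,6-bisphosphate, rose from 6.38 ± 0.126 to 47.1 ± 0.448 CPM and from 2.89 ± 0.547 to 13.2 ± 0.752 CPM, and Eno1 and Pgam1, of lower glycolysis, fell from 3167 ± 19.0 to 2072 ± 76.9 CPM and from 653 ± 7.18 to 308 ± 17.1 CPM. Slc16a1, a lactate carrier, fell from 199 ± 6.11 to 78.6 ± 3.95 CPM (-1.34 ± 0.04). Genes of pyruvate entry and the TCA cycle were 15 higher and 21 lower of 40, with Pcx, pyruvate carboxylase, from 3.60 ± 0.146 to 22.5 ± 1.04 CPM (2.64 ± 0.09), and Idh2, an NADPH-making dehydrogenase, from 80.0 ± 1.81 to 20.4 ± 0.731 CPM (-1.97 ± 0.04). Complex I subunits rose in 20 of 36 cases and fell in 9, and those of complexes II to V and cytochrome c rose in 13 and fell in 20 of 43. Ndufa6 moved most among complex I subunits, from 72.1 ± 1.22 to 168 ± 5.66 CPM (1.23 ± 0.04). Ucp2, an uncoupling-protein relative of the mitochondrial carriers, was among the 10 genes that gained most mean CPM and held 703, 685 and 702 CPM in the Ctrl libraries and 2976, 2932 and 2945 CPM in the E2 libraries (log2 fold change 2.08 ± 0.03, edgeR adjusted p = 8.62e-18).

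Sterol synthesis and uptake rose in 22 of 30 genes and fell in 7 (median 0.36), and fatty acid genes fell in 22 of 39 and rose in 14 (9 higher and 24 lower with library size alone). Soat2, which esterifies cholesterol, rose from 11.2 ± 1.72 to 69.6 ± 0.923 CPM (2.63 ± 0.07), and Idi1, an early synthesis enzyme, from 463 ± 14.2 to 1165 ± 58.5 CPM (1.33 ± 0.04). Abca1, the exporter of cholesterol, held 88.4, 94.8 and 90.8 CPM in the Ctrl libraries and 5.33, 4.19 and 5.26 CPM in the E2 libraries (log2 fold change -4.22 ± 0.07, edgeR adjusted p = 1.55e-16), the strongest fall of that list. Scd1, the desaturase that makes oleate, held 94.4, 68.9 and 76.1 CPM in the Ctrl libraries and 3.17, 2.07 and 1.84 CPM in the E2 libraries (log2 fold change -5.10 ± 0.16, edgeR adjusted p = 2.28e-13), and its relative Scd2 was among the largest losers of mean CPM, from 2533 ± 68.8 to 1254 ± 62.5 CPM (-1.01 ± 0.03). Elovl6, which lengthens palmitate, fell from 97.2 ± 3.59 to 15.2 ± 1.02 CPM (-2.68 ± 0.05). Pcyt1a, which sets the rate of phosphatidylcholine synthesis, rose from 109 ± 6.59 to 365 ± 25.2 CPM (1.74 ± 0.05). Antioxidant genes leaned higher, 19 of 34 with 9 lower (median 0.21). Srxn1, which repairs peroxiredoxins, rose from 20.2 ± 0.576 to 104 ± 3.44 CPM (2.37 ± 0.04), Gstt1 from 0.667 ± 0.142 to 30.3 ± 2.10 CPM (5.49 ± 0.13), and Sod2, the mitochondrial superoxide dismutase, fell from 149 ± 3.25 to 78.6 ± 1.99 CPM (-0.93 ± 0.03).

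Cytoskeleton and adhesion genes went both ways. All 45 actin and small GTPase genes tested were called, 29 lower and 16 higher (median -0.16). Flna, the actin crosslinker filamin A, held 455, 449 and 464 CPM in the Ctrl libraries and 17.1, 16.5 and 21.7 CPM in the E2 libraries (log2 fold change -4.63 ± 0.06, edgeR adjusted p = 1.56e-17), while Gsn, the actin-severing gelsolin, rose from 2.26 ± 0.458 to 78.1 ± 3.40 CPM (5.10 ± 0.09). Coro1a and Capg, actin regulators of white cells, fell from 19.5 ± 2.73 to 1.85 ± 0.229 CPM and from 23.5 ± 0.921 to 3.66 ± 0.276 CPM. Of 14 septin, annexin and galectin genes 12 fell and 2 rose (1 with library size alone), and 3 of the 14 passed the filter in Ctrl libraries only. Sept9 fell, with 144, 147 and 151 CPM in the Ctrl libraries and 4.36, 4.52 and 5.26 CPM in the E2 libraries (log2 fold change -4.96 ± 0.06, edgeR adjusted p = 4.57e-18), and Lgals9, a galectin, from 221 ± 13.8 to 11.8 ± 1.51 CPM (-4.23 ± 0.07). Among the tubulins, Tuba4a rose from 345 ± 5.57 to 1894 ± 28.7 CPM (2.46 ± 0.03) and Tubb2a from 6.15 ± 0.403 to 38.1 ± 2.50 CPM (2.63 ± 0.08), and Tuba1a fell from 96.1 ± 2.09 to 38.7 ± 1.88 CPM (-1.31 ± 0.04). Tubulin genes resemble each other closely, and reads they share were divided by estimate. Of 12 integrin and adhesion genes 5 rose and 6 fell, and 1 of the 12 passed the filter in E2 libraries only and 2 in Ctrl libraries only. Icam4, an adhesion molecule of red cells, rose from 9.33 ± 0.358 to 38.4 ± 1.74 CPM (2.04 ± 0.07) and Cd24a from 352 ± 3.36 to 772 ± 27.8 CPM (1.13 ± 0.03). Itgb1 and Itga5, integrin chains that bind fibronectin, fell from 392 ± 6.43 to 238 ± 3.78 CPM (-0.72 ± 0.03) and from 33.4 ± 0.765 to 15.7 ± 1.03 CPM (-1.09 ± 0.06).

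Of 39 genes of lamina and heterochromatin 13 rose and 22 fell. Lmna, which encodes lamins A and C, held 106, 94.6 and 98.97 CPM in the Ctrl libraries and 573, 624 and 658 CPM in the E2 libraries (log2 fold change 2.63 ± 0.05, edgeR adjusted p = 9.13e-16), and Sun2 and Sun1, which tie the lamina to the cytoskeleton, rose from 18.2 ± 0.816 to 111 ± 1.44 CPM (2.60 ± 0.04) and from 76.0 ± 1.17 to 277 ± 2.07 CPM (1.87 ± 0.03). Syne1, a partner of the SUN proteins, fell from 16.4 ± 1.39 to 4.33 ± 0.254 CPM (-1.92 ± 0.10), as did Hmga1, an architectural chromatin protein, from 813 ± 27.1 to 243 ± 11.7 CPM (-1.74 ± 0.04). Splicing genes fell in 51 of 66 cases and rose in 10 (median -0.29, 4 higher with library size alone), with Prpf19 from 402 ± 2.04 to 184 ± 5.51 CPM (-1.13 ± 0.03), and import, export and pore genes fell in 30 of 43 and rose in 10 (5 with library size alone), with Xpo5, the exporter of microRNA precursors, from 169 ± 5.00 to 71.9 ± 3.08 CPM (-1.24 ± 0.04). Of 19 NuRD and CoREST genes 12 fell and 5 rose (3 with library size alone), with Chd3 from 71.0 ± 1.09 to 20.5 ± 1.51 CPM (-1.79 ± 0.05) and Rcor1 from 173 ± 4.53 to 252 ± 4.39 CPM (0.54 ± 0.03). Dnmt3b, a DNA methyltransferase, fell from 39.7 ± 1.81 to 10.2 ± 1.42 CPM (-1.97 ± 0.08). Of 61 clustered histone genes none passed the filter. Their RNAs carry no poly(A) tail, and the libraries were made from poly(A) RNA.

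The study asked about O-GlcNAc, a sugar placed on proteins by OGT and removed by OGA. Ogt held 340.4, 360.4 and 325 CPM in the Ctrl libraries and 484, 490.4 and 475 CPM in the E2 libraries (log2 fold change 0.50 ± 0.03, edgeR adjusted p = 2.04e-09), and Mgea5, which encodes OGA, 231, 226 and 219.8 CPM in the Ctrl libraries and 341, 329.9 and 321 CPM in the E2 libraries (log2 fold change 0.55 ± 0.03, edgeR adjusted p = 1.96e-10). Both rose, by less than 1.5-fold and without overlap. Gfpt1, the first enzyme of the pathway that makes the sugar donor, held 416, 410.3 and 419 CPM in the Ctrl libraries and 93.7, 95.7 and 92.4 CPM in the E2 libraries (log2 fold change -2.14 ± 0.03, edgeR adjusted p = 2.22e-17). The next enzymes Gnpnat1 and Pgm3 fell from 14.5 ± 0.203 to 7.29 ± 0.403 CPM (-0.99 ± 0.08) and from 19.6 ± 1.16 to 11.8 ± 0.479 CPM (-0.73 ± 0.07). Among other enzymes of amino sugars and sialic acid, Cmas rose from 29.5 ± 2.03 to 172 ± 10.8 CPM (2.55 ± 0.05), Renbp from 13.7 ± 0.275 to 61.9 ± 0.399 CPM (2.18 ± 0.05) and Gnpda1 from 39.8 ± 2.35 to 147 ± 3.85 CPM (1.88 ± 0.04). Over the 14 genes tested 7 rose and 4 fell.

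Estrogen receptor genes and textbook estrogen targets were mostly at or near 0. Of 19 such genes listed, 6 passed the filter and 10, such as Greb1, Pgr and Tff1, had no count in any of the 6 libraries. Esr1, the receptor gene, held 7.57, 7.32 and 6.83 CPM in the Ctrl libraries and 33.9, 35.7 and 35.1 CPM in the E2 libraries (log2 fold change 2.27 ± 0.07, edgeR adjusted p = 1.32e-13). Reads of the fusion's receptor part cannot be told apart from those of Esr1 itself. Ctsd, a lysosomal protease, rose from 288 ± 11.7 to 494 ± 2.31 CPM (0.78 ± 0.03), and Rara, a retinoic acid receptor, fell from 19.4 ± 1.84 to 2.70 ± 0.394 CPM (-2.85 ± 0.12).

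The labels call the cells embryonic stem cells, but most markers of such cells stayed at or near 0. Of 14 embryonic stem cell markers, 13 stayed under 1 CPM in every library, and Dppa4 alone was above, from 80.7 ± 0.160 to 50.1 ± 1.66 CPM. Of 13 erythroid markers 12 passed the filter and all 12 rose, 2 of which passed it in E2 libraries only, and their summed level was 2175 to 2186 CPM in Ctrl and 43680 to 46804 CPM in E2. Hbb-bs and Hba-a2 made most of the E2 sum, and Tfrc, at 969 to 989 CPM, was the largest in Ctrl. The log2 fold changes of the 12 ran from 0.68 (Epor) to 10.89 (Slc4a1). All 17 lymphoid markers and all 15 stem and multipotent progenitor markers stayed under 1 CPM. Mast cell and basophil markers summed to 1069 to 1140 CPM in Ctrl and 145 to 148 CPM in E2, most of it Gata2 and Kit. Of that list Ms4a2, a chain of the IgE receptor, fell from 14.8 ± 4.19 to 0.0811 ± 0.0729 CPM (-7.34 ± 0.39), and Il4, the interleukin, rose from 4.09 ± 0.966 to 24.3 ± 1.51 CPM (2.58 ± 0.12). Megakaryocyte markers summed to 150.5 to 161 CPM and 171 to 188 CPM, with Nbeal2, of platelet granules, lower, from 78.6 ± 4.204 to 26.2 ± 3.05 CPM (-1.59 ± 0.07), and Plek higher, from 64.3 ± 2.41 to 127 ± 7.51 CPM (0.98 ± 0.04). Of 26 granulocyte and macrophage markers 16 had no count, and their sum was 25.8 to 33.5 CPM in Ctrl and 9.32 to 11.4 CPM in E2. Coro1a made most of the sum in Ctrl. In E2 it held 1.98, 1.98 and 1.58 CPM, and Fcgr2b held 5.04, 3.53 and 3.98 CPM. The part of other cell types in the results was not tested.

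Some of the most abundant RNAs kept their level. Eef1a1, the elongation factor, held 13097, 13639 and 13521 CPM in the Ctrl libraries and 13237, 13401 and 13154 CPM in the E2 libraries, with a log2 fold change of -0.02 ± 0.03 (edgeR adjusted p = 0.598). Rpl7 and Rack1, proteins of the ribosome, were as steady, at log2 fold changes of -0.05 ± 0.03 and -0.03 ± 0.03 with 95% intervals within 0.2 of 0. Library size alone moved all 3 by about -0.10 and put them past the threshold as lower. By TPM, AK131586 was first in Ctrl and the third in E2. The share of counts in the 10 most abundant genes of each library went from 6.83% ± 0.21 to 9.06% ± 0.16, with no overlap (exact permutation p = 0.10, two-sided, the smallest possible).

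**Figure D4:**
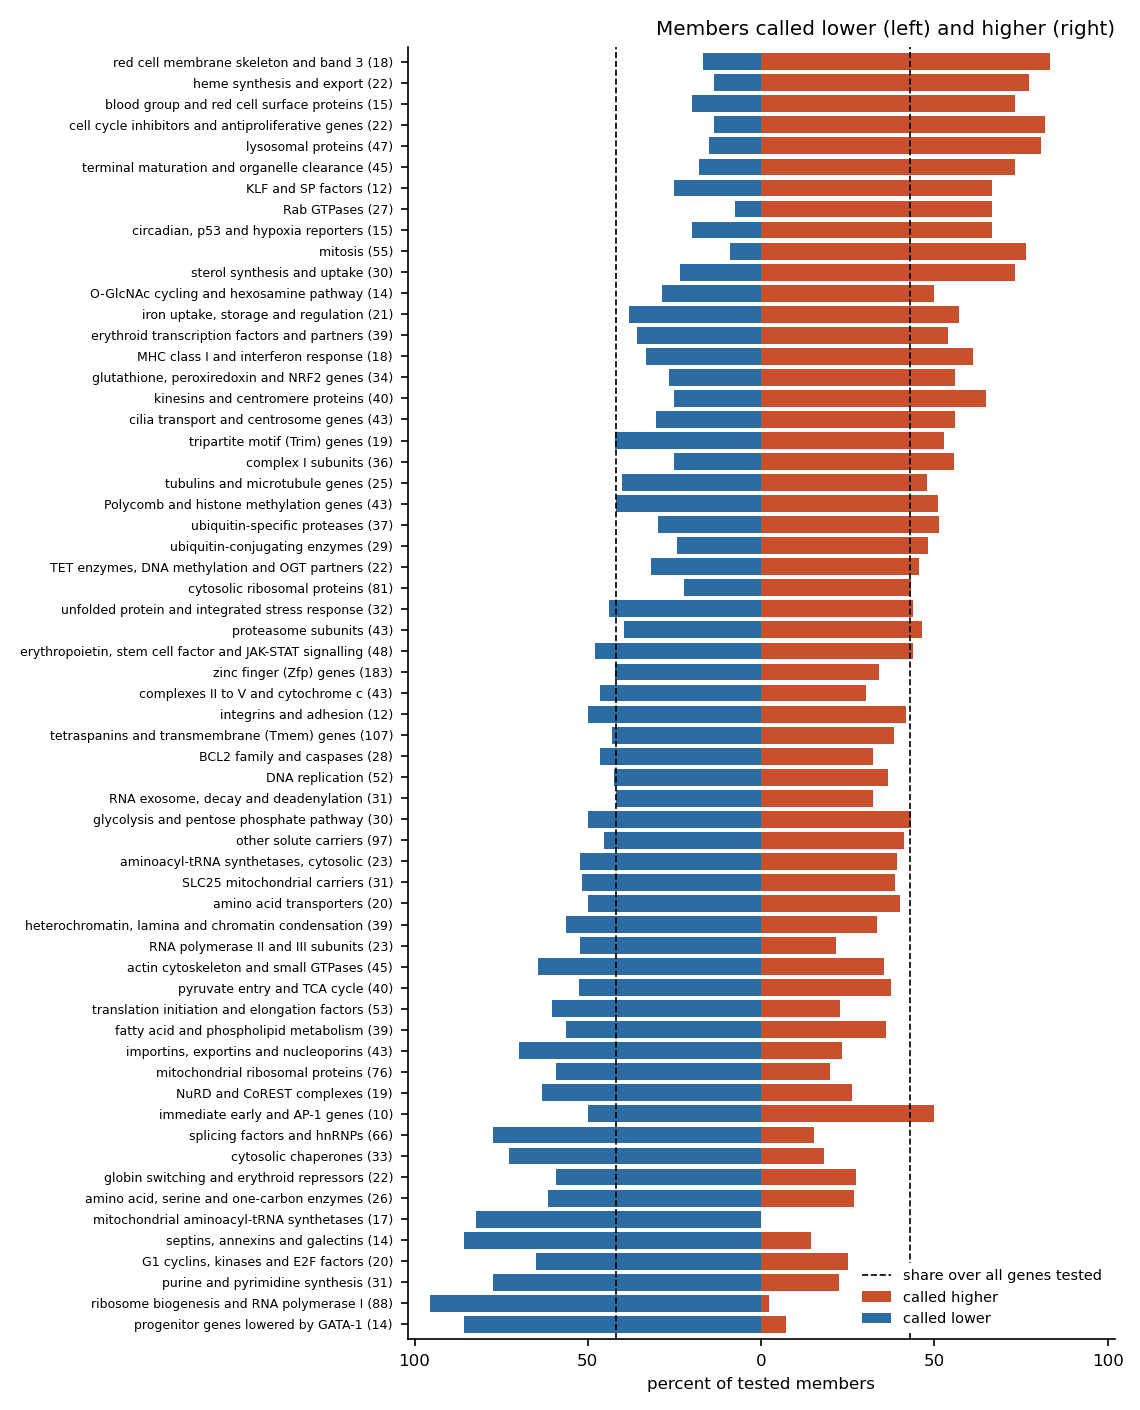
Percent of the tested members of each gene list with 10 or more of them that were called higher (right, orange) and lower (left, blue), ordered by median log2 fold change, with the number tested in brackets. The dashed lines mark 43.1% and 41.9%, the shares over all 8199 genes. Membrane skeleton, heme and lysosome lists reach past the right line, and ribosome biogenesis and progenitor genes past the left.

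The same contrast exists in cells that also had TMG, 3 libraries with TMG alone and 3 with TMG and E2, none of them shared with the comparison above. All 1422 genes called 2-fold or more with E2 alone had the same sign in this second set, and 1420 were called there by edgeR with that sign. Of the 4009 small calls under 1.5-fold, 3941 had the same sign (98.3%), 3372 were called with it and 6 with the other sign. Across the 8199 genes the fold changes of the 2 sets had a Pearson's r of 0.990, a description over genes that share libraries and depth and are not replicates. Slc4a1 changed by 10.11 ± 0.11 in the second set, Hbb-bs by 9.42 ± 0.10, Alas2 by 7.38 ± 0.07 and Csf2rb by 5.87 ± 0.14 on the log2 scale. Gata2 changed by -4.25 ± 0.06, Flna by -4.78 ± 0.08 and Tfr2 by -4.28 ± 0.08. For Car1 and Scd1 the values were -6.53 ± 0.11 and -4.97 ± 0.20. The 2 sets differ by TMG, so they are not replicates of each other.

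**Figure D5:**
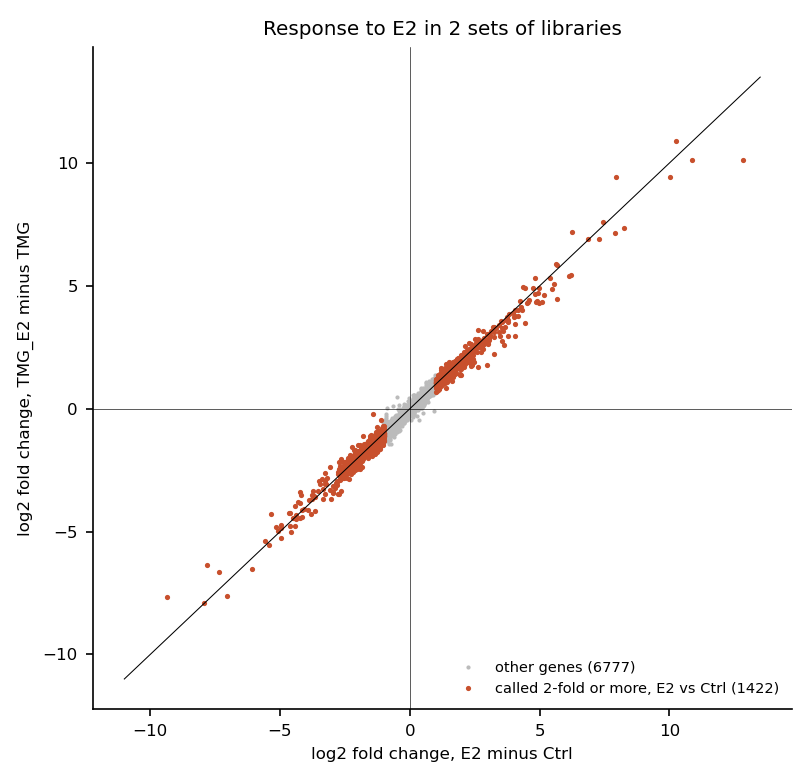
Log2 fold change of E2 over Ctrl (horizontal) against that of TMG_E2 over TMG (vertical) for 8199 genes, each axis from 6 libraries with none shared. The 1422 genes called 2-fold or more in the first set are orange, and all of them lie in the lower left or upper right, around the line of equal change.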

How the data were processed

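RNA of 6 libraries was analysed from expected counts that the authors deposited, which are RSEM estimates per gene and need not be whole. Per the series design text and the submitters' processing notes, the authors used FastQC 0.11.2, the genome GRCm38, Bowtie2, RSEM 1.2.22 and edgeR 3.14.0 in R 3.2.2. A strand setting for counting is named in no source. The deposited TPM values, scaled by the authors for length and depth, served only to compare levels between genes.

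Expected counts were rounded, the 8199 genes past a CPM of 10 in 2 or more of the 6 libraries were tested, and groups were compared by the quasi-likelihood F test of edgeR 4.0.16 in R 4.3.3 with TMM scaling, on the 6 libraries alone and with no covariate. Benjamini-Hochberg adjustment ran over all 8199. The SE came from the F statistic. Each replicate pair differed by more than sampling noise (2.41 to 4.19 chi-square units per degree of freedom). Counts were not corrected for molecules, so intervals cover counting error only.

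The members and the 73 gene lists were chosen with earlier results of these data known. Name patterns of 3 lists (nucleoporins, Rab genes, translation factors) were corrected after values were seen, to drop genes that are no members. Genes named are 11 set ones, the 10 highest and 10 lowest folds without overlap, the 10 that gained and 10 that lost most mean CPM, up to 3 risers and 3 fallers per list, and 8 steady ones (95% interval within 0.2 of 0), of which the text gives a selection. Those named outside it are marked, and some genes of these groups are not reported here. Alternatives were other scalings, other filters, all 12 libraries, DESeq2 1.42.0, a replicate block and leaving out each library. Positions and promoters are from RefSeq on GRCm38.p6.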

Additional observations from a re-analysis of the deposited data

How the results depend on the processing

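Under 14 alternatives no gene called in the main comparison was called with the other sign. The counts of called genes stayed within 1.5 times of 3531 higher and 3436 lower under all of them, and leaving out 1 library gave 3416 to 3460 higher and 3323 to 3374 lower, with 708 to 726 and 681 to 713 of 2-fold or more. With no filter, 15464 genes were tested and 1252 were higher and 1412 lower by 2-fold or more, and with edgeR's filterByExpr 1154 of 10906 were lower by 2-fold or more. Both alternatives test more genes of low count. Scaling by library size alone gave 2947 higher and 4038 lower genes, with 42.2% of calls higher against 50.7%, and upper quartile factors gave 3065 and 3911, with 43.9% higher.

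Of 5478 fold changes of named genes under an alternative, 5449 kept their direction and side of the threshold, 8 lost and 10 gained a call and 11 turned round, all of steady ribosomal protein genes. Rpl6 turned to -0.0847 with library size alone and -0.0626 with upper quartile factors, and ranged from -0.0018 to 0.0348 with 1 library left out. With library size alone and upper quartile factors, Rpl19 turned to -0.0773 and -0.0552, Rps24 to -0.0838 and -0.0618, Rpl12 to -0.0789 and -0.0567, and Rpl31 to -0.0545 and -0.0324. Of 1960 counts of list members under an alternative, 31 moved by over 1.5 times, mostly with library size alone or upper quartile factors, such as fatty acid genes, with 9 in place of 14 higher.

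Deviations of same-numbered libraries from their group means correlated at 0.0966 to 0.238, against -0.171 to 0.0561 for other numbers, and every library correlated best with its own number. The series design text states no block, so the main fit held none, and whether the numbers pair the libraries is not known. With a replicate block 3565 genes were higher and 3457 lower, 715 and 706 of them by 2-fold or more. At a depth of 18364529 to 22198189 counts, a gene under about 0.163 CPM cannot be told from absent.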

Other observations

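Rab GTPase genes, of membrane traffic, rose in most cases. Of 27 Rab GTPases tested, 18 rose and 2 fell (5 fell with library size alone), with a median log2 fold change of 0.45. Rab8b held 73.3, 73.7 and 74.4 CPM in the Ctrl libraries and 327, 335 and 318 CPM in the E2 libraries (log2 fold change 2.15 ± 0.03, edgeR adjusted p = 6.25e-17), and Rab43 rose from 53.6 ± 0.800 to 206 ± 4.57 CPM (1.94 ± 0.03). Ubiquitin enzymes had strong single risers within lists of no common direction: Ube2h rose from 27.5 ± 1.35 to 125 ± 4.98 CPM (2.18 ± 0.05), Usp49 from 17.2 ± 0.811 to 61.6 ± 2.34 CPM (1.84 ± 0.05) and Usp32 from 43.8 ± 2.17 to 146 ± 2.77 CPM (1.74 ± 0.04). Genes of cilia and centrosomes rose in 24 of 43 cases and fell in 13, and 2 of the 43 passed the filter in E2 libraries only and 5 in Ctrl libraries only. Ift20 rose from 19.7 ± 1.08 to 67.4 ± 4.16 CPM (1.78 ± 0.06) and Cep164 from 41.1 ± 1.71 to 122 ± 5.35 CPM (1.56 ± 0.04). Cep55, of the last step of cell division, fell from 24.6 ± 0.472 to 5.93 ± 0.322 CPM (-2.06 ± 0.08).

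Transport genes outside the iron and heme lists held large changes in both directions. Slc6a9, a glycine carrier, rose, with 26.2, 24.96 and 23.9 CPM in the Ctrl libraries and 157, 164 and 168 CPM in the E2 libraries (log2 fold change 2.71 ± 0.04, edgeR adjusted p = 1.22e-16), and Slc43a3, a purine carrier, from 77.4 ± 1.02 to 323 ± 8.97 CPM (2.06 ± 0.03). Slc30a2, a zinc transporter, fell from 55.6 ± 2.34 to 2.67 ± 0.389 CPM (-4.38 ± 0.08), and Slc25a4, the ADP and ATP carrier of muscle, from 150.1 ± 6.02 to 38.0 ± 1.46 CPM (-1.98 ± 0.04). MHC class I and interferon genes rose in 11 of 18 cases and fell in 6, with B2m, the light chain of class I, from 114 ± 1.59 to 287 ± 15.2 CPM (1.33 ± 0.04). Ache, the acetylcholinesterase that red cells carry on their surface, rose from 13.2 ± 1.09 to 418 ± 14.8 CPM (4.98 ± 0.05), and was picked after its values were seen. Il1b rose from 1.14 ± 0.175 to 19.1 ± 1.28 CPM and its antisense neighbour Il1bos from 3.89 ± 0.488 to 24.3 ± 1.55 CPM. Without a stated strand setting their reads cannot be told apart, and both were picked after their values were seen.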
